A study of Mus musculus with 137 samples.

Results

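Old mouse lungs taken 42 days after bleomycin were compared with old lungs taken 42 days after saline. The comparison used 11 of the lung libraries of the series, which holds 77 from old and 60 from young mice. They were chosen by their labels alone: 5 bleomycin lungs and 6 saline lungs. All 11 came from male C57BL/6J mice aged 21 months. The bleomycin mice had received 0.63 mg/kg of the drug into the trachea and the saline mice the salt solution without drug. No transgene or deletion is named for either group. Groups set beside them were old lungs at day 35 (4 bleomycin, 6 saline) and day 56 (6 and 11), 5 untreated old lungs of day 0, and young lungs at day 42 (5 and 5, mice of 8 to 12 weeks, 0.7 mg/kg of bleomycin). The labels do not tie libraries to animals beyond a library number each, so p-values measure the spread between libraries. That spread was estimated over all 26 groups of the series and not over the 11 compared libraries alone.

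Bleomycin breaks DNA, and after it is placed in the airways it kills alveolar cells and is followed by inflammation and a scar. Fibroblasts fill the scar with collagen, fibronectin and other matrix, driven in large part by the growth factor TGF-beta, while macrophages that enter as blood monocytes take up debris and secrete matrix enzymes. Alveolar type 2 cells divide and turn into the flat type 1 cells that carry gas exchange, and on the way pass through a state marked by keratin 8. In young mice the scar is largely cleared over the weeks that follow.

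Each lung yielded 16836916 to 23555670 counted reads, and 18396 genes had enough counts to be tested. Lung markers were abundant in every library. The surfactant gene Sftpc stood at 16064, 12966, 11882, 15168 and 15458 CPM in the bleomycin lungs against 9171 to 18734 (median 13649) CPM in the saline lungs, where CPM is the count per 1000000 reads of the scaled library, and the groups overlapped. Here and below bleomycin values are given in the order of replicates 1 to 5. Saline replicate 6 stood apart from the other saline lungs: on the first principal component of the 2000 most variable genes it lay at −64.2, the other saline lungs between −14.1 and −2.23, and the bleomycin lungs between 5.84 and 43.2. Bleomycin replicates 1 and 5 lay furthest out on the other side, at 43.2 and 30.2. On the second component saline replicate 6 lay at 36, beyond the bleomycin lungs at 7.37 to 18. The other saline lungs lay there between −25.1 and −16.4. The labels give no batch. Results that rest on saline replicate 6 are therefore given with and without it.

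In the edgeR quasi-likelihood test 3610 genes (19.6%) passed a Benjamini-Hochberg adjusted p of 0.05. Of these 1798 (9.77%) were higher after bleomycin and 1812 (9.85%) lower, and the median log2 fold change of all tested genes was −0.03. Changes of more than 2-fold were seen in 391 of the risen and 357 of the fallen genes. In 674 genes (3.66%) every bleomycin lung was above every saline lung, and in 358 (1.95%) every bleomycin lung was below. Of these genes 926 were called. Without saline replicate 6, 1969 genes (10.7%) were higher and 1686 (9.17%) lower. Both fits called 1498 genes higher and 1247 lower, while 300 rises and 565 falls were called only with that lung in the fit, and 909 genes only without it. With the 5 bleomycin and 6 saline lungs fitted alone, without the other groups of the series, 1178 of 16416 genes (7.18%) were called, 747 higher (4.55%) and 431 lower (2.63%). With saline replicate 6 left out of that fit as well, 2909 genes were called. "Rose" and "fell" below mean a call in the fit of all groups, and values given as x ± y are log2 fold changes ± standard error unless CPM is named. Counts of list genes in that fit stand beside 9.77% of all tested genes higher and 9.85% lower.

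**Figure D1:**
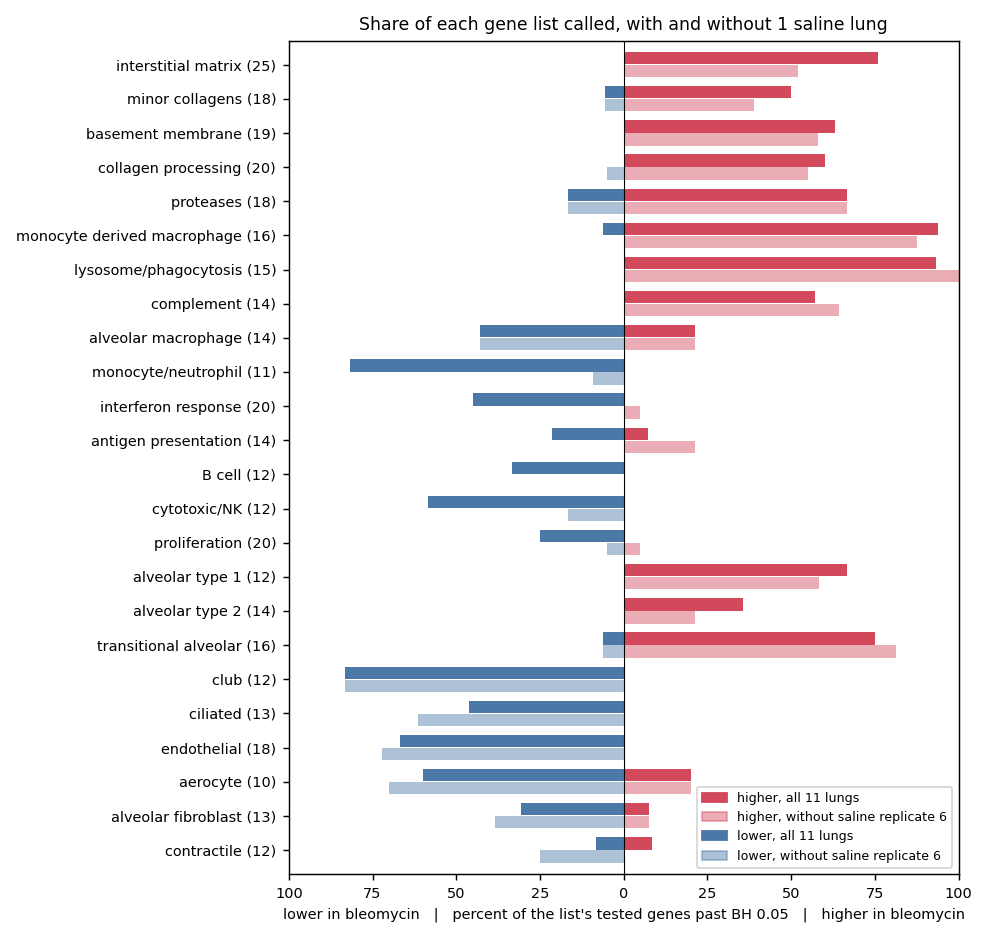
The share of each gene list called higher (right) or lower (left) in bleomycin than in saline lungs, with all 11 lungs (dark bars) and without saline replicate 6 (pale bars); tested genes per list are in parentheses. The matrix, macrophage and lysosome bars stay on the right in both fits, and the interferon bar of 9 of 20 genes on the left is gone without that lung.

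Genes of the scar matrix were higher in the old lung 6 weeks after the injury. Of 25 genes of the interstitial matrix 19 rose (8 with the 2 groups fitted alone) and 0 fell (median 0.81), with 11 of them free of overlap. Col1a1 (ENSMUSG00000001506, GRCm38 chromosome 11, 94936224 to 94953042), which encodes the main chain of type I collagen, stood at 1236, 482, 473, 614 and 1186 CPM in the bleomycin lungs against 181 to 452 (median 399) CPM in the saline lungs. The lowest bleomycin lung was just above the highest saline lung, and replicates 1 and 5 were far above the other 3. Its log2 fold change was 1.11 ± 0.29, adjusted p = 0.00323, and untreated old lungs stood at 370.3 ± 16.5 CPM (SD, n = 5). Col3a1 (ENSMUSG00000026043, GRCm38 chromosome 1, 45311538 to 45349706), the type III collagen laid down with it, stood at 2061, 965, 990.3, 1192 and 2016 CPM in the bleomycin lungs against 198 to 833 (median 698) CPM in the saline lungs, again without overlap (1.17 ± 0.22, adjusted p = 4.03e-05). Saline replicate 6 was the lowest lung for both, at 181 and 198 CPM, and without it the changes were 0.97 and 0.98, both still called.

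Matrix glycoproteins made in injury rose too. Fibronectin, Fn1 (ENSMUSG00000026193, GRCm38 chromosome 1, 71585520 to 71653200), stood at 2702, 1022, 1159, 1552 and 2929.5 CPM in the bleomycin lungs against 426 to 711 (median 622) CPM in the saline lungs (1.68 ± 0.32, adjusted p = 3.88e-05). Tenascin C, Tnc (ENSMUSG00000028364, GRCm38 chromosome 4, 63959785 to 64047015), which is scarce in a resting lung, stood at 243, 58.5, 62.5, 135.4 and 267 CPM in the bleomycin lungs against 14.9 to 32.03 (median 24.7) CPM in the saline lungs (2.70 ± 0.41, adjusted p = 2.61e-07). Neither gene overlapped between groups, and replicates 1 and 5 were again the 2 highest. Ltbp2, a protein of elastic microfibrils, rose by 1.59 ± 0.25 and Sparc, which binds collagen, by 0.88 ± 0.15. Elastin itself, Eln, rose by 1.40 ± 0.28 and thrombospondin 2, Thbs2, by 2.07 ± 0.45. Periostin, Postn, was at 0.10 ± 0.10 and decorin, Dcn, at 0.18 ± 0.14, neither past the test. Without saline replicate 6, 13 of the 25 genes rose and 0 fell (median 0.73), and Col5a1, Col6a1, Col6a3, Col14a1, Col16a1 and Lum were no longer called.

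Several minor collagens and other matrix proteins, some of them of cartilage and tendon, rose. Of 18 genes in this list 9 rose and 1 fell (median 0.69). Their levels in saline lungs differed widely. Among the risen genes Col10a1 had a saline mean of 0.026 CPM and Col7a1 one of 25.5 CPM, and Col27a1, not called, one of 44.3 CPM. Col10a1 and Col11a1 (means of 0.075 CPM in saline and 0.63 CPM in bleomycin lungs) are too scarce in these saline lungs to pass the count filter there. They entered through groups where they are higher, so their rises are no separate support. With the 2 groups fitted alone 13 genes of the list could be tested, of which 4 rose. Col24a1, a minor fibrillar collagen, stood at 7.63, 1.18, 1.52, 3.36 and 6.61 CPM in the bleomycin lungs against 0 to 0.365 (median 0.238) CPM in the saline lungs (4.14 ± 0.50, adjusted p = 3.86e-10), with no overlap. Thbs4, a matrix protein of tendon, stood at 9.04, 2.73, 2.04, 1.71 and 5.51 CPM in the bleomycin lungs against 0.167 to 0.752 (median 0.374) CPM in the saline lungs (3.29 ± 0.57, adjusted p = 7.63e-06), also apart. Cilp, a cartilage protein, stood at 49.6, 15.3, 9.46, 11.7 and 36.9 CPM in the bleomycin lungs against 2.62 to 9.71 (median 3.76) CPM in the saline lungs (2.42 ± 0.40), and here 1 bleomycin lung was below the highest saline lung. The gene that fell was Chad (−0.97 ± 0.30), which the club cell list holds as well. Calls in this list dropped to 5 risen genes without bleomycin replicate 1 and to 6 without replicate 5.

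Basement membrane genes rose in 12 of 19 cases, with 0 falls (median 0.56), and 11 rose without saline replicate 6. Lama3 and Lamb3, laminin chains of epithelial anchorage, rose by 1.18 ± 0.20 and 0.81 ± 0.12. Lamb3 stood at 242, 140.5, 141.6, 163 and 214 CPM in the bleomycin lungs against 82.1 to 138.7 (median 97.6) CPM in the saline lungs, without overlap. Lama1, a laminin of early development, was at 1.89 ± 0.32. Lama3 overlapped through 1 saline lung, replicate 5, at 251 CPM. The type IV collagens Col4a1 (0.82 ± 0.17), Col4a2 (0.75 ± 0.15) and Col4a3 (0.97 ± 0.18) rose too.

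Enzymes that modify, cross-link and cleave matrix were also higher. Of 20 genes of collagen processing 12 rose and 0 fell (median 0.39), but 7 rose without bleomycin replicate 1 and 6 without replicate 5. P4ha3, a prolyl hydroxylase subunit, stood at 15.99, 3.35, 2.22, 3.36 and 11.4 CPM in the bleomycin lungs against 1.05 to 1.67 (median 1.34) CPM in the saline lungs (2.44 ± 0.47, adjusted p = 5.39e-05), without overlap. Plod1, a lysyl hydroxylase, rose by 0.50 ± 0.11 and Adamts2, which trims procollagen, by 0.96 ± 0.19. The lysyl oxidase Lox rose by 0.80 ± 0.26, a call lost without saline replicate 1 or 3 or bleomycin replicate 1 or 5. Of 18 proteases 12 rose and 3 fell (median 1.07), with the risen Mmp12 and Mmp14 also in the list of monocyte-derived macrophages below. The counts were the same without saline replicate 6, but with Adamts5 (−0.40) called lower in place of Mmp8. Mmp10, among the risen, had a mean of 0 CPM in saline and 0.48 CPM in bleomycin lungs. It passed the count filter only through lungs where it is higher, so its rise is no separate support. Mmp19, a metalloproteinase of macrophages and stroma, stood at 128.9, 91.3, 98.8, 147.1 and 198 CPM in the bleomycin lungs against 23.7 to 36.4 (median 31.9) CPM in the saline lungs (2.12 ± 0.23, adjusted p = 6.02e-12), without overlap. Mmp2, gelatinase A of fibroblasts, rose by 1.43 ± 0.18, and the lysosomal cathepsins Ctsb by 1.08 ± 0.14 and Ctss by 1.44 ± 0.20, all without overlap. The falls were Mmp9 (−1.10 ± 0.33), Mmp28 (−0.56 ± 0.13) and Mmp8 (−1.30 ± 0.36), a neutrophil collagenase for which saline replicate 6 stood at 73.5 CPM and no other lung above 12.4 CPM. Without that lung Mmp8 was at −0.18 and not called. Of 10 protease inhibitors 4 rose (2 without bleomycin replicate 1) and 1 fell, and Timp1 stood at 30.3, 13.2, 16.99, 17.2 and 36.8 CPM in the bleomycin lungs against 5.23 to 7.18 (median 5.86) CPM in the saline lungs (1.93 ± 0.41, adjusted p = 0.00027), without overlap.

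TGF-beta is stored in the matrix bound to latency proteins and is released by integrins, and signals through its receptors to SMAD proteins. Of 12 ligands and activators 7 rose and 0 fell (median 0.56). Tgfb3 rose by 0.68 ± 0.14 and Tgfb2 by 0.45 ± 0.12, whereas Tgfb1 was at 0.07 ± 0.073 and not called. Without saline replicate 6 Tgfb1 was called higher (0.20) and Ltbp4 lower (−0.34), so that 8 genes rose and 1 fell. The activating integrin chains Itgb6 (0.93 ± 0.17), Itgb8 (0.80 ± 0.21) and Itgav (0.48 ± 0.10) rose, as did the latency protein Ltbp3 (0.65 ± 0.10). The receptor genes Tgfbr1 and Tgfbr2 rose: Tgfbr1 stood at 138, 115.3, 118.1, 125.5 and 130.4 CPM in the bleomycin lungs against 76.8 to 85.3 (median 79.6) CPM in the saline lungs (0.64 ± 0.086, adjusted p = 8.7e-09) and Tgfbr2 rose by 0.50 ± 0.09, each without overlap. The inhibitory Smad6 (−0.88 ± 0.20) and Smad7 (−0.35 ± 0.10) fell, as did Tgfbr3 (−0.39 ± 0.12) and Bambi (−0.45 ± 0.16). Of 12 receptors and SMADs 4 thus rose and 4 fell. Of 12 genes listed as TGF-beta targets 5 rose and 0 fell, Ltbp2 and Timp1 among them, with Pmepa1 at 0.72 ± 0.18 and Ccn2 at 0.27 ± 0.21, the latter not called. Without bleomycin replicate 5, 3 targets rose, and without replicate 1 or 5, 1 or 2 of the receptor and SMAD falls were called.

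Antagonists of BMP and WNT signals rose in part. Of 15 such genes 7 rose and 1 fell (median 0.48). The BMP antagonist Grem1 (ENSMUSG00000074934, GRCm38 chromosome 2, 113746164 to 113758646) stood at 24.4, 2.78, 2.69, 5.55 and 20.7 CPM in the bleomycin lungs against 0.262 to 1.34 (median 0.490) CPM in the saline lungs (4.08 ± 0.66, adjusted p = 1.28e-06). The WNT antagonist Dkk2 stood at 15.99, 1.44, 1.11, 2.71 and 8.50 CPM in the bleomycin lungs against 0.349 to 1.11 (median 0.563) CPM in the saline lungs (3.19 ± 0.55), and Frzb at 4.22, 0.412, 0.292, 0.649 and 4.37 CPM in the bleomycin lungs against 0.0965 to 0.279 (median 0.213) CPM in the saline lungs (3.25 ± 0.69). In all 3 genes replicates 1 and 5 were above the other bleomycin lungs by a wide margin. Dkk2 overlapped through its lowest bleomycin lung, at the level of the highest saline lung, while Grem1 and Frzb did not overlap.

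Contractile genes were mostly not called. Of 12 genes 1 rose and 1 fell (median −0.18), and without saline replicate 6 Myh11, Cnn1 and Myl9 were called lower and 0 genes higher (median −0.30). Acta2, the smooth muscle actin of myofibroblasts and vessel walls, stood at 179, 144.1, 127.9, 162 and 178 CPM in the bleomycin lungs against 95.9 to 211 (median 169) CPM in the saline lungs (−0.09 ± 0.18, adjusted p = 0.778). The range of the bleomycin lungs lay within that of the saline lungs. Tpm1 rose (0.29 ± 0.10) and Cnn1 fell (−0.64 ± 0.23), and both calls were lost without any 1 of several lungs, bleomycin replicates 1 and 5 among them for either gene. Of 13 alveolar fibroblast genes 1 rose and 4 fell, with 2 falls without bleomycin replicate 1 or 5. Slc7a10, an amino acid carrier of lipofibroblasts, stood at 5.996, 26.6, 23.1, 17.3 and 7.70 CPM in the bleomycin lungs against 19.7 to 51.9 (median 48.3) CPM in the saline lungs (−1.38 ± 0.38), overlapping through its lowest saline lung, replicate 6, and Ces1d, a lipase, fell by 0.52 ± 0.13. The fibroblast factor Tcf21 was at −0.23 ± 0.16 and not called. Of 10 adventitial fibroblast genes 2 rose, 1 without saline replicate 6, and 2 fell. Among them Pi16 fell (−0.83 ± 0.20) and Mfap5, a microfibril protein, rose (1.12 ± 0.19). Of 10 pericyte genes 1 rose, the laminin chain Lamc3 (0.60 ± 0.16), near the 9.77% of all tested genes. Up to 4 rose with single lungs left out, the most without bleomycin replicate 2.

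**Figure D2:**
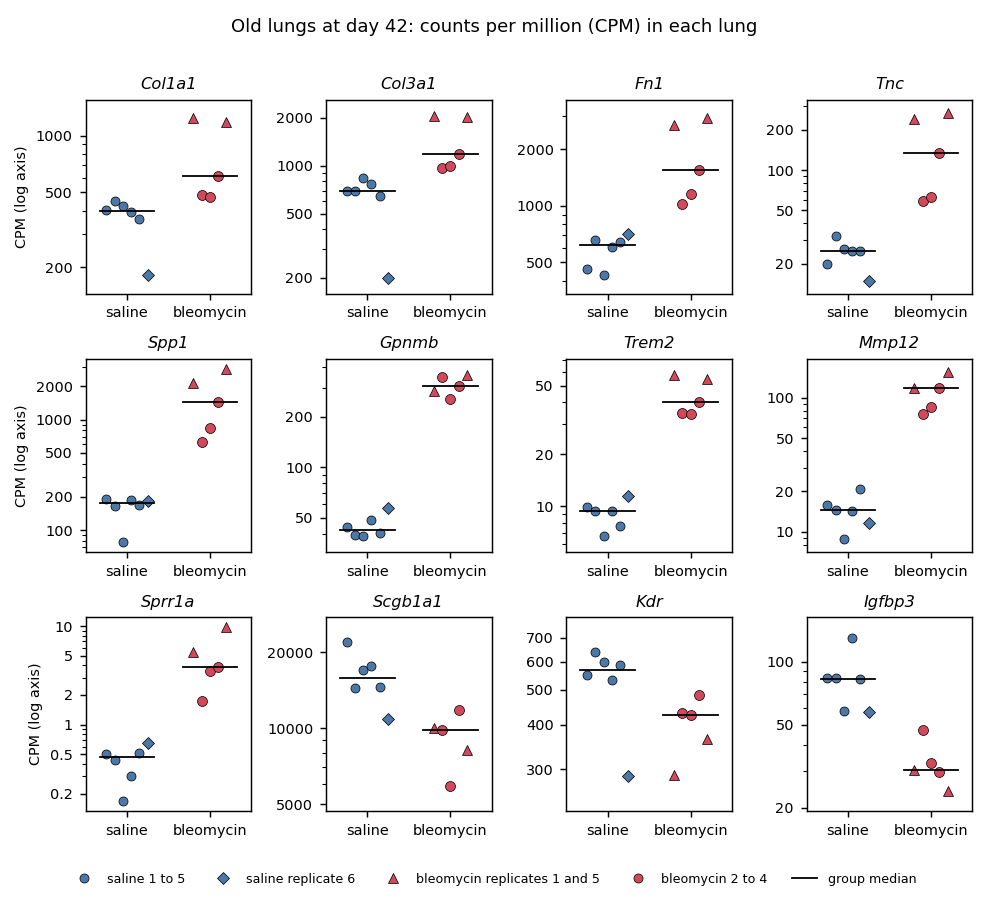
CPM (log axis) of 12 genes in each of the 6 saline and 5 bleomycin lungs; bars mark group medians, the diamond is saline replicate 6 and triangles are bleomycin replicates 1 and 5. Matrix genes and Spp1 are highest in replicates 1 and 5, and Gpnmb is at a like level in all 5 bleomycin lungs.

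Genes of macrophages that derive from monocytes rose in nearly every case. Of 16 genes 15 rose and 1 fell (median 1.12), and 14 rose and 0 fell without saline replicate 6. Gpnmb (ENSMUSG00000029816, GRCm38 chromosome 6, 49036546 to 49070929), a glycoprotein of lipid-laden macrophages, stood at 286, 348, 258, 305 and 357 CPM in the bleomycin lungs against 38.7 to 56.8 (median 42.2) CPM in the saline lungs (2.80 ± 0.29, adjusted p = 9.8e-13). The 5 bleomycin lungs differed little among themselves and all were more than 4-fold above the highest saline lung. Spp1 (ENSMUSG00000029304, GRCm38 chromosome 5, 104435118 to 104441050), osteopontin, stood at 2133, 632, 837, 1448 and 2847 CPM in the bleomycin lungs against 78.6 to 189 (median 177) CPM in the saline lungs (3.28 ± 0.35, adjusted p = 4.6e-12), a wider spread with replicates 1 and 5 on top. Trem2 (ENSMUSG00000023992, GRCm38 chromosome 17, 48346401 to 48354147), a lipid-sensing receptor, stood at 57.3, 34.9, 34.2, 40.4 and 54.4 CPM in the bleomycin lungs against 6.75 to 11.4 (median 9.39) CPM in the saline lungs (2.28 ± 0.24, adjusted p = 2.37e-12), and the macrophage elastase Mmp12 (ENSMUSG00000049723, GRCm38 chromosome 9, 7344381 to 7369499) at 118.5, 75.1, 85.2, 118.3 and 156 CPM in the bleomycin lungs against 8.81 to 20.9 (median 14.5) CPM in the saline lungs (2.95 ± 0.44, adjusted p = 2.21e-07). None of the 4 overlapped between groups. The single fall of the list, the chemokine receptor Ccr2 of newly arrived monocytes (−0.56 ± 0.20), was at −0.21 without saline replicate 6. These are tissue homogenates, in which fewer cells of a type and less RNA per cell cannot be told apart.

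Resident alveolar macrophage genes moved in both directions. Of 14 genes 3 rose and 6 fell (median −0.31), the same counts as without saline replicate 6. The lectin Siglecf, a surface marker of these cells, stood at 9.95, 11.01, 12.4, 11.5 and 12.1 CPM in the bleomycin lungs against 13.1 to 21.7 (median 18.1) CPM in the saline lungs (−0.63 ± 0.14, adjusted p = 0.000656), with no overlap. Krt79 stood at 2.23, 7.205, 7.30, 3.24 and 6.26 CPM in the bleomycin lungs against 12.8 to 28.2 (median 20.4) CPM in the saline lungs (−1.98 ± 0.38) and the lipid droplet gene Cidec at 1.499, 6.54, 5.08, 3.89 and 3.08 CPM in the bleomycin lungs against 11.6 to 25.5 (median 13.1) CPM in the saline lungs (−2.06 ± 0.38), both without overlap. Fabp1, a fatty acid carrier, fell by 2.23 ± 0.42. Of the falls, Car4 is also an aerocyte gene and Cidec is also in the list of lipid uptake and storage. Of the 12 genes of that list 4 fell and 2 rose (median −0.11), with 2 falls without saline replicate 1 or bleomycin replicate 1. Besides Cidec the falls were the fat cell genes Plin1 (−1.97 ± 0.71), Plin4 (−1.12 ± 0.35) and Retn (−2.72 ± 0.82), and the fat cell hormone Adipoq was at −2.14 ± 0.84, not called. The part of fat cell RNA in the fall of Cidec was not tested. The integrin Itgax, shared with other macrophages, rose (1.09 ± 0.15) without overlap.

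Lysosomal and phagocytic genes rose almost as a whole. Of 15 genes 14 rose and 0 fell (median 0.57), and all 15 rose without saline replicate 6. Atp6v0d2, a subunit of the proton pump, stood at 136.2, 95.9, 103.3, 116.2 and 157 CPM in the bleomycin lungs against 32.4 to 49.9 (median 44.4) CPM in the saline lungs (1.49 ± 0.18, adjusted p = 3.98e-10). The acid lipase Lipa stood at 243, 164, 193, 210.2 and 264 CPM in the bleomycin lungs against 92.04 to 111.7 (median 107.9) CPM in the saline lungs (1.03 ± 0.12), and Mfge8, which tags dying cells for uptake, at 573, 432, 458, 533 and 667 CPM in the bleomycin lungs against 182 to 315 (median 269) CPM in the saline lungs (1.01 ± 0.13). All 3 were free of overlap. An E-box (CACGTG on either strand, the core of the element bound by the lysosomal regulator TFEB) was found in the 250 bases before the start of 1 of the 11 list genes with a RefSeq window, 9.09% against 9.01% of the tested genes; that gene was Lamp1, with 4 matches. Of 10 genes of iron and haem handling 4 rose and 2 fell (median 0.41), with 1 fall without saline replicate 1 or 6 or bleomycin replicate 1. Ferritin light chain Ftl1 (0.72 ± 0.13) and haem oxygenase Hmox1 (0.84 ± 0.17), which handle iron from engulfed cells, rose without overlap, as did lipocalin Lcn2 (1.72 ± 0.27). The falls were the iron hormone hepcidin, Hamp (−2.32 ± 0.64), and the haemoglobin scavenger receptor Cd163 (−0.84 ± 0.27), the latter at −0.61 and not called without saline replicate 6.

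Complement and chemokine genes were higher in part. Of 14 complement genes 8 rose and 0 fell (median 0.42). The macrophage list holds the risen C1qa, C1qb and C1qc as well. C1qb, which macrophages make, stood at 188, 184, 138, 121.2 and 175 CPM in the bleomycin lungs against 48.1 to 100.05 (median 58.8) CPM in the saline lungs (1.26 ± 0.21, adjusted p = 4.85e-06), without overlap, and the receptor C3ar1 rose by 1.57 ± 0.22. Of 23 chemokines 7 rose and 2 fell (median 0.33), and 9 rose and 1 fell without saline replicate 6. Ccl2, the monocyte attractant, stood at 5.996, 5.97, 8.23, 4.60 and 6.46 CPM in the bleomycin lungs against 1.74 to 3.24 (median 2.64) CPM in the saline lungs (1.33 ± 0.34, adjusted p = 0.00239), and Ccl6 of macrophages rose by 1.13 ± 0.20, neither with overlap. The 6 of 17 cytokine genes that rose included Il33 (0.76 ± 0.14), an alarm signal of type 2 cells, the EGF family ligand Areg (1.66 ± 0.28) and Il1a (0.72 ± 0.17), and 0 fell. Tnf (−0.39 ± 0.31) and Il1b (−0.66 ± 0.31) were not called.

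In the alveolar epithelium genes of type 1 cells and of the transitional state were higher, and Sftpc was not called. Of 12 type 1 genes 8 rose and 0 fell (median 0.52). Ager, the abundant type 1 surface receptor, stood at 2292, 1762, 1725, 1898 and 2191 CPM in the bleomycin lungs against 1043 to 2075 (median 1307) CPM in the saline lungs (0.51 ± 0.15, adjusted p = 0.00863), and the junction gene Cldn18 at 1009, 675, 703, 803 and 943 CPM in the bleomycin lungs against 327 to 701 (median 414) CPM in the saline lungs (0.86 ± 0.13, adjusted p = 1e-07). Both overlapped through 1 lung, saline replicate 5, whose type 1 score (mean log2 CPM of the list) was 9.28 where the other saline lungs were at 8.40 to 8.63 and the bleomycin lungs at 9.03 to 9.15. Old saline lungs of other days had type 1 scores of 8.04 to 9.30 and untreated old lungs 8.78 to 9.04, and with the mean of all 6 old saline groups as the control 3 type 1 genes rose and 2 fell. Of 14 type 2 genes 5 rose and 0 fell (median 0.20), and 3 rose without saline replicate 3 or 6 or bleomycin replicate 1, 4 or 5. Sftpd, a surfactant protein of host defence, rose (0.55 ± 0.13), whereas Sftpc was at 0.03 ± 0.19.

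Transitional alveolar genes rose in 12 of 16 cases and fell in 1 (median 0.63), with 13 risen without saline replicate 6. Sprr1a, a protein of the cornified envelope, stood at 5.41, 1.75, 3.50, 3.83 and 9.79 CPM in the bleomycin lungs against 0.167 to 0.654 (median 0.470) CPM in the saline lungs (3.46 ± 0.44, adjusted p = 2.45e-09), with no overlap. Krt8 itself stood at 186, 122.8, 130.1, 149.1 and 188 CPM in the bleomycin lungs against 83.96 to 128.9 (median 109.8) CPM in the saline lungs (0.54 ± 0.13, adjusted p = 0.00168), with 1 bleomycin lung inside the saline range. Areg stood at 16.1, 7.87, 9.98, 9.62 and 15.4 CPM in the bleomycin lungs against 2.56 to 5.07 (median 3.57) CPM in the saline lungs, without overlap, and Clu, a secreted chaperone, rose by 0.81 ± 0.14. The list shares Itgb6 and Lgals3 with the TGF-beta and macrophage lists. Of 10 basal cell genes 1 rose and 1 fell, near the 19.6% of all tested genes called, and Krt5 was at 1.35 ± 0.89, not called.

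Genes of the conducting airways fell in part. Of 12 club cell genes 10 fell and 0 rose (median −0.77), and the same counts were found without saline replicate 6. Cardiac muscle markers moved with the airway lists. Saline replicate 1 was the highest of the 11 lungs for the club (8.92), ciliated (6.18), airway defence (4.99) and cardiac (5.61) scores. The club score was 7.33 to 7.87 after bleomycin and 7.91 to 8.92 after saline, and the cardiac score 3.10 to 4.04 and 3.996 to 5.61. Of 11 cardiac genes, which mark the muscle sleeves of pulmonary veins, 4 fell and 0 rose, with Myh7 at −1.08 ± 0.23, 1 fell without saline or bleomycin replicate 1, and 2 without saline replicate 3 or bleomycin replicate 3, 4 or 5. The part of cardiac muscle content in the airway result was not tested. Scgb1a1 (ENSMUSG00000024653, GRCm38 chromosome 19, 9083636 to 9087958) stood at 10034, 9885, 5879.9, 11818 and 8200.0 CPM in the bleomycin lungs against 10888 to 22003 (median 15827) CPM in the saline lungs (−0.81 ± 0.22, adjusted p = 0.00425), with 1 bleomycin lung above the lowest saline lung, replicate 6. The paraoxonase Pon1 stood at 15.7, 23.4, 15.8, 19.1 and 11.1 CPM in the bleomycin lungs against 33.6 to 56.2 (median 41.5) CPM in the saline lungs (−1.35 ± 0.28), without overlap, and Aldh1a1, a retinal dehydrogenase, fell by 0.64 ± 0.17. Of 13 ciliated genes 6 fell and 0 rose, and 12 of the 13 had an unadjusted p under 0.05. Rsph1, a radial spoke protein, stood at 15.3, 16.8, 10.8, 18.5 and 13.2 CPM in the bleomycin lungs against 14.8 to 41.98 (median 26.6) CPM in the saline lungs (−0.83 ± 0.23), overlapping saline replicate 6. The ciliated count was 8 without saline replicate 6, and 2 or 3 without any 1 of saline replicates 1 and 3 and bleomycin replicates 1, 3 and 5. Foxj1, the master factor of cilia, fell (−0.58 ± 0.22), a call lost in 8 of the 11 fits that left 1 lung out. Of 12 genes of airway defence and mucus 4 fell and 1 rose, and without saline replicate 1 a single fall was left. The antimicrobial Bpifb1 stood at 6.36, 3.09, 6.54, 3.78 and 6.41 CPM in the bleomycin lungs against 1.302 to 96.5 (median 19.9) CPM in the saline lungs (−2.56 ± 0.79), with overlap, and the call was lost without saline replicate 1.

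Vascular genes fell by small amounts. Of 18 general endothelial genes 12 fell and 0 rose (median −0.33), and 13 fell without saline replicate 6 but 6 without bleomycin replicate 1. Endoglin, Eng, a TGF-beta co-receptor of endothelium, stood at 335, 617, 648, 555 and 470.4 CPM in the bleomycin lungs against 693 to 1062 (median 806) CPM in the saline lungs (−0.68 ± 0.14, adjusted p = 0.000188), and the angiopoietin receptor Tek stood at 232, 361, 363, 307 and 264 CPM in the bleomycin lungs against 378 to 470.1 (median 422) CPM in the saline lungs (−0.47 ± 0.10). Neither overlapped between groups. Plvap, of capillary diaphragms, fell (−0.69 ± 0.15). Kdr (ENSMUSG00000062960, GRCm38 chromosome 5, 75932827 to 75978458), the main VEGF receptor, stood at 289, 432, 425, 483 and 363 CPM in the bleomycin lungs against 287 to 638 (median 569) CPM in the saline lungs (−0.42 ± 0.14, adjusted p = 0.024), a call lost without saline replicate 2 or 3 or bleomycin replicate 1 or 5. Saline replicate 6 was the lowest saline lung for it, at 287 CPM. Of 10 aerocyte genes, of the gas-exchange capillary, 6 fell (3 without bleomycin replicate 1 or 5) and 2 rose: the carbonic anhydrase Car4 stood at 59.4, 112.9, 95.8, 105.6 and 79.9 CPM in the bleomycin lungs against 98.1 to 154 (median 145.9) CPM in the saline lungs (−0.60 ± 0.13, adjusted p = 0.000346), with 2 bleomycin lungs above the lowest saline lung, replicate 6, and Fibin fell (−0.97 ± 0.21). Igfbp3, a binding protein of growth factors counted here in the senescence list, fell without overlap, at 30.4, 47.04, 32.6, 29.9 and 24.2 CPM in the bleomycin lungs against 57.4 to 130.5 (median 82.8) CPM in the saline lungs (−1.33 ± 0.23, adjusted p = 4.3e-06). Of 12 genes of systemic and venous vessels 4 rose and 2 fell (median 0.03), with 1 fall without saline replicate 1 or 6 or bleomycin replicate 1, 4 or 5. The rises were Lrg1 (1.34 ± 0.25), Ackr1 (1.299 ± 0.44), Col15a1 (1.21 ± 0.29) and Bst1 (0.51 ± 0.15), the falls Plvap and Amigo2 (−0.43 ± 0.15), and Vwf, the clotting factor of venous endothelium, was at −0.31 ± 0.16, not called. Of 8 lymphatic genes 3 rose and 1 fell (median 0.40). The factor Prox1 (0.85 ± 0.22) and Mmrn1 (0.62 ± 0.15) rose without overlap and Pdpn, also a type 1 cell gene, rose by 0.78 ± 0.15, whereas Lyve1, a hyaluronan receptor, fell (−0.60 ± 0.22) but was at −0.30 without saline replicate 6, and its call was lost without that lung or bleomycin replicate 1, 4 or 5.

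Most calls of interferon, cytotoxic, myeloid and cell cycle genes as lower after bleomycin were lost without saline replicate 6. Its interferon score was 6.90, against 4.34 to 5.33 in the other 5 saline lungs, 4.26 to 5.26 in 34 old saline lungs of other days and 4.42 to 5.27 after bleomycin. Of 20 interferon genes 9 fell and 0 rose (median −0.54). Gbp2, a guanylate-binding protein induced by interferon, stood at 58.4, 159.5, 185, 82.2 and 66.97 CPM in the bleomycin lungs, 987 CPM in saline replicate 6 and at most 109.4 CPM in the other saline lungs. With that lung its change was −1.18 ± 0.27, and without it 0.11. For Zbp1, a nucleic acid sensor, the values were −1.28 ± 0.33 and 0.07, and for the antiviral Isg15 −0.58 ± 0.25 (not called) and 0.14. Without it 0 interferon genes fell and 1 rose (median 0.11), the chemokine gene Cxcl10 (1.15), and with the mean of all 6 old saline groups as control 0 fell and 1 rose. With that lung kept, the falls numbered 5 without bleomycin replicate 1 and 14 without saline replicate 2 or 5.

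The table of RefSeq promoters (GRCm38.p6) held 14 of the 20 list genes, and 9 of the 14 (64.3%) had a match to the interferon-stimulated response element (TTTC, any 2 bases, TTTC, on either strand) in the 250 bases before the start, against 3.31% of the tested genes with a window. Windows of 3 list genes whose estimates moved with saline replicate 6 are shown. They run 5′ to 3′ on the strand of the gene, with matches in capitals and overlapping matches joined.
Gbp2 (chr3:142620413-142620662, + strand): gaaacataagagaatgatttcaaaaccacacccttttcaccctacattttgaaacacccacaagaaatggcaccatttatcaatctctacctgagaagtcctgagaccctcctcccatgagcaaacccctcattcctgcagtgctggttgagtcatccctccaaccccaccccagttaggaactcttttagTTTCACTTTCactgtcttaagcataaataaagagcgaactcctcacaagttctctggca
Isg15 (chr4:156200819-156201068, − strand): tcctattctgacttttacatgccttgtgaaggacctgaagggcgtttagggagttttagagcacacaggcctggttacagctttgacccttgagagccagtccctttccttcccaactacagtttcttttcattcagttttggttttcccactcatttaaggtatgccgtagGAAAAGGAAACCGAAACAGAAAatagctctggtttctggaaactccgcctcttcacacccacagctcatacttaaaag
Oas3 (chr5:120777660-120777909, − strand): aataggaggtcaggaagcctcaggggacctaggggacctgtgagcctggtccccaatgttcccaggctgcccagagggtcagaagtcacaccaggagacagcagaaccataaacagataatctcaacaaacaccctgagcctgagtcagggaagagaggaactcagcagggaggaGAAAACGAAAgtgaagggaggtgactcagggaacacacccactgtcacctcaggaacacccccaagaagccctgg
Isg15 has 3 matches that run into each other, and Gbp2 and Oas3 have 1 each. Oas3, which makes a second messenger against viral RNA, was at −1.20 ± 0.37 with all lungs and −0.09 without saline replicate 6. A match is a run of letters and no measure of binding. The list was made up of interferon response genes, and the part of the matches in these values was not tested.

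**Figure D3:**
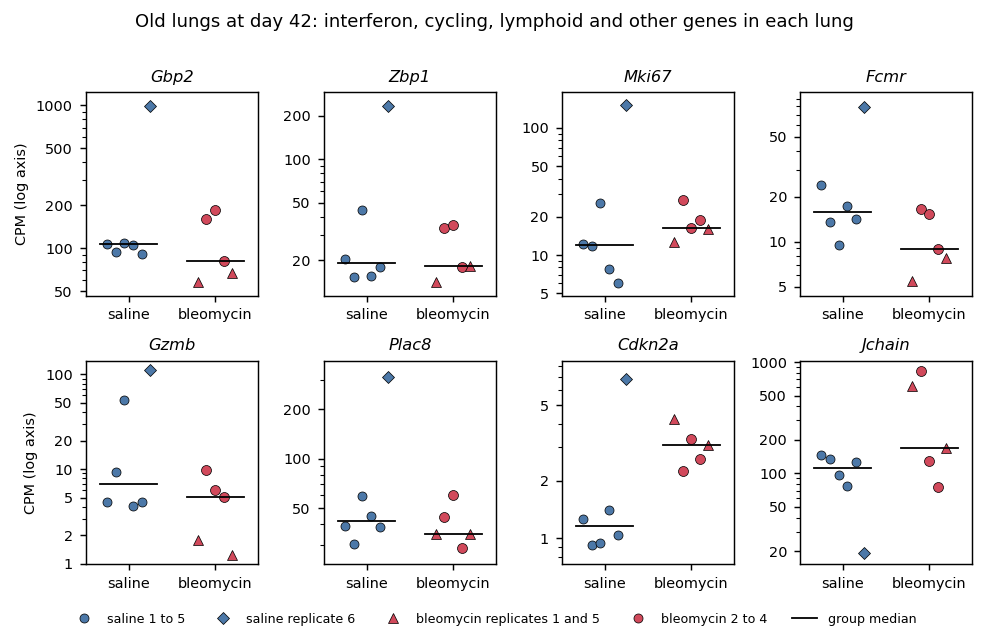
CPM (log axis) of 8 interferon, cell cycle, lymphoid, myeloid and other genes in each lung, with saline replicate 6 as a diamond and group medians as bars. That lung is the highest of all 11 for Gbp2, Zbp1, Mki67, Fcmr, Gzmb, Plac8 and Cdkn2a, and the lowest for Jchain.

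Other immune lists also moved with that lung. Of 11 monocyte and neutrophil genes 9 fell and 0 rose with it, and 1 fell without it, while the median went from −1.15 to −0.73. Plac8, of blood monocytes, stood at 316 CPM there and at 28.7 to 60.4 CPM in the other 10 lungs, and its change of −1.12 ± 0.28 was −0.06 without it. The neutrophil genes S100a8 (−0.73), S100a9 (−0.83), Retnlg (−0.84), Cxcr2 (−0.81) and Csf3r (−0.75) kept negative estimates without it and were not called. The 1 that stayed was Ly6c2, the marker of inflammatory monocytes (−1.62 ± 0.39 and −1.05). Of 14 antigen presentation genes 3 fell and 1 rose, 0 fell and 3 rose without it, and 1 fell without bleomycin replicate 1 or 5. The peptide carrier Tap1 went from −0.68 ± 0.19 to 0.01 and the proteasome subunit Psmb9 from −0.61 ± 0.20 to −0.09. Of 12 cytotoxic genes 7 fell (median −1.15), and 2 without it (median −0.61), granzyme Gzmb (−2.71 ± 0.55 and −1.66) and perforin Prf1 (−1.71 ± 0.43 and −1.23). The myeloid and cytotoxic scores were lowest in bleomycin replicates 1 and 5, and without either of these 3 myeloid and 4 cytotoxic genes fell.

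Lymphocyte genes were mixed. Of 12 B cell genes 4 fell with all lungs, 1 without bleomycin replicate 1 or 5, and 0 without saline replicate 6, where Fcmr, a receptor for IgM, was at −0.55 and stood at 79.4 CPM in the lung left out. The receptor chain Cd79a was not called (−0.80 ± 0.39). Of 18 T cell genes 1 rose, the regulatory factor Foxp3 (1.33 ± 0.37), and 1 fell, Lef1 (−0.68 ± 0.23), a call lost without saline replicate 3 or bleomycin replicate 1 or 5, and Cd3e was at −0.73 ± 0.33, not called. With single lungs left out 0 to 7 T cell genes fell, the most without bleomycin replicate 2. Among 16 plasma cell genes 5 rose and 1 fell (median 0.65). Jchain, the joining chain of secreted antibodies, stood at 616, 826, 128.03, 75.8 and 168 CPM in the bleomycin lungs against 19.2 to 144.995 (median 111.9) CPM in the saline lungs (1.86 ± 0.54, adjusted p = 0.00834), and the kappa constant gene Igkc at 1873, 5608, 603, 339 and 851 CPM in the bleomycin lungs against 439.7 to 629 (median 459) CPM in the saline lungs (1.88 ± 0.53, adjusted p = 0.00639). For both genes replicates 1 and 2 were highest, replicate 5 was above the saline lungs, and replicates 3 and 4 lay inside or below their range. Without replicate 2 neither gene was called and 2 of the 16 rose. The fall, Ighg3 (−2.43 ± 0.88), came with 274 CPM in saline replicate 6 against at most 7.33 CPM in the other saline lungs, and was 1.21 without it. Its call was also lost without any 1 of bleomycin replicates 1, 3, 4 and 5. Of 230 antigen receptor segments 60 were higher and 8 lower, and 41 and 3 without that lung.

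No cell cycle gene was called higher with all lungs in the fit. Of 20 genes 5 fell and 0 rose with all lungs (14 at an unadjusted p under 0.05), and 1 fell and 1 rose without saline replicate 6, which had a proliferation score of 4.29 against 1.33 to 2.49 in the other saline lungs. Mki67, the proliferation antigen, stood at 12.8, 27.3, 16.2, 18.8 and 15.9 CPM in the bleomycin lungs against 5.99 to 152 (median 11.9) CPM in the saline lungs (−0.99 ± 0.39, adjusted p = 0.0624), and was at 0.52 without that lung, not called either way. Without saline replicate 5 the falls numbered 14, with replicate 6 still in the fit. The cell cycle inhibitor Cdkn2a, a senescence marker, stood at 4.22, 2.26, 3.33, 2.60 and 3.08 CPM in the bleomycin lungs against 0.916 to 6.84 (median 1.15) CPM in the saline lungs. Every bleomycin lung was above saline replicates 1 to 5, and below saline replicate 6 at 6.84 CPM. Its change was 0.56 ± 0.31 with that lung (adjusted p = 0.196) and 1.47 without it (adjusted p = 0.000103). Cdkn1a, the p53 target p21, was at 0.34 ± 0.14 and not called. Of 15 p53 targets 3 rose, with Zmat3 at 0.41 ± 0.11 and Ccng1 at 0.47 ± 0.10, and 1 fell, beside 19.6% of all tested genes called. Of 14 senescence genes 4 rose and 3 fell, and 0 or 1 rose without bleomycin replicate 1 or 5.

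Stress and metabolic lists were mixed. Of 16 genes of endoplasmic reticulum stress 6 rose and 1 fell, with the chaperone Hyou1 at 0.40 ± 0.12, and 1 rose without bleomycin replicate 2, 3 or 5. Of 12 antioxidant genes 5 rose, with the glutathione enzyme Gclc at 0.53 ± 0.11, and 3 fell. Of 20 lipid synthesis genes 5 rose and 2 fell, with the desaturase Scd1 at 0.76 ± 0.18. Of 18 nuclear genes of oxidative phosphorylation and of 10 heat shock genes 0 were called by edgeR, 0 by DESeq2 and 0 had an unadjusted p under 0.05. Of 6 tested mitochondrial genes 3 fell, mt-Nd2 (−0.49 ± 0.15) among them, 5 without saline replicate 6 and 1 without bleomycin replicate 1 or 5. Of 9 blood genes 0 were called by edgeR or DESeq2 and 0 had an unadjusted p under 0.05. The blood score ran from 0.08 to 4.45 in bleomycin lungs, lowest in replicates 1 and 5. Of 11 dendritic cell genes 3 rose and 1 fell, of 14 genes of hypoxia and glycolysis 1 rose and 2 fell, and of 13 clock genes 2 fell. The hypoxia and clock counts were near the 19.6% of all tested genes called. The dendritic cell rises were lost without bleomycin replicate 1, and the clock falls without saline replicate 3 or 6 or bleomycin replicate 1, 4 or 5. The lists of 9 mast cell genes and 13 immediate early genes had 1 fall each. The 1 skeletal muscle gene called, Acta1 (2.95 ± 1.05), stood at 6.81 CPM in bleomycin replicate 1 and at 0.349 CPM or less in the other 10 lungs.

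With the 2 groups fitted alone the list counts were as follows, beside 4.55% of all genes higher and 2.63% lower. The rises numbered 14 of 16 for monocyte-derived macrophages, 11 of 15 for lysosomes, 11 of 17 for proteases and 9 of 19 for basement membrane. They numbered 8 of 25 for interstitial matrix, 4 of 13 for minor collagens and cartilage matrix and 3 of 20 for collagen processing. They numbered 4 of 12 for TGF-beta ligands and activators, 4 of 14 for BMP and WNT antagonists and 5 of 14 for complement. For type 1 cells there were 3 of 12, for type 2 cells 2 of 14 and for the transitional state 7 of 16. At an unadjusted p under 0.05 interstitial matrix had 18 rises, collagen processing 15, type 1 cells 8 and the transitional state 12. The falls numbered 7 of 12 for club cells, 1 of 13 for ciliated cells (12 at an unadjusted p under 0.05), 5 of 18 for general endothelium, 1 of 10 for aerocytes and 4 of 11 for cardiac muscle. In this edgeR fit 0 plasma cell genes rose (4 at an unadjusted p under 0.05), and 0 monocyte and neutrophil, 0 cytotoxic and 0 interferon genes fell (6, 6 and 1 at an unadjusted p under 0.05).

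Genes without overlap, with an average log2 CPM above 1 and with the same call without saline replicate 6 were ranked by size, leaving out predicted genes and receptor segments. Scarcer genes such as Col10a1 (4.56 ± 1.49), Frzb and Col11a1 (3.02 ± 1.06) are therefore not in the ranking. In it the largest rises were Col24a1, Grem1, Chl1 (3.92 ± 0.68), a neural adhesion molecule, Cemip (3.61 ± 0.64), which breaks down hyaluronan, Megf11 (3.48 ± 0.55), Sprr1a, Kng2 (3.36 ± 0.66), a kininogen, Thbs4, Spp1, Mmp12, Gpnmb and Tnc. Cemip stood at 24.8, 1.65, 1.81, 5.49 and 13.1 CPM in the bleomycin lungs against 0.262 to 1.01 (median 0.853) CPM in the saline lungs, lowest in replicates 2 and 3 and highest in replicate 1. Chl1 stood at 13.4, 3.14, 4.32, 5.84 and 16.9 CPM in the bleomycin lungs against 0.260 to 1.13 (median 0.423) CPM in the saline lungs, with the same 2 lungs lowest and replicate 5 highest. The largest falls were Bex2 (−2.48 ± 0.35), Asgr1 (−2.33 ± 0.43), a lectin, Fabp1, Hes2 (−2.22 ± 0.38), Cidec, Cd209f (−2.05 ± 0.31), a lectin of resident tissue macrophages, Krt79, Acaa1b (−1.78 ± 0.32), a peroxisomal thiolase, Tbata (−1.63 ± 0.34) and Cpne5 (−1.48 ± 0.24). Bex2 stood at 4.95, 11.3, 7.36, 5.66 and 2.29 CPM in the bleomycin lungs against 16.5 to 55.3 (median 35.6) CPM in the saline lungs, with replicate 5 lowest. None of these 22 genes lost its call in any fit that left out 1 lung. They were chosen for no overlap and for the same call without saline replicate 6, so these fits are no separate support.

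Bleomycin replicates 1 and 5 stood apart from the other 3 bleomycin lungs in the matrix genes. The interstitial matrix score was 8.30 and 8.28 in replicates 1 and 5 and 7.30 to 7.58 in the other 3, where saline lungs 1 to 5 were at 6.94 to 7.10 and saline replicate 6 at 6.20. Old saline lungs of other days ranged from 6.55 to 7.16. The same 2 lungs were highest for the macrophage score (7.48 and 7.55 against 6.97 to 7.18) and the transitional score (6.16 and 6.25 against 5.49 to 5.79), and lowest of the 5 for the endothelial, neutrophil, cytotoxic and blood scores. Some other scores ranged more widely among the 5 bleomycin lungs than the matrix score, among them blood and the plasma cell score, at 4.79 to 7.12. The part of these other cell types in the matrix result was not tested. Of the 1798 risen genes 688 had their highest value in replicate 1 and 763 in replicate 5. Of the 1812 fallen genes 662 were lowest in replicate 1, 418 in replicate 5 and 396 in replicate 3, and 651 were highest in saline replicate 6. Without bleomycin replicate 1 the count of called genes was 2195 and without replicate 5 it was 2129.

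**Figure D4:**
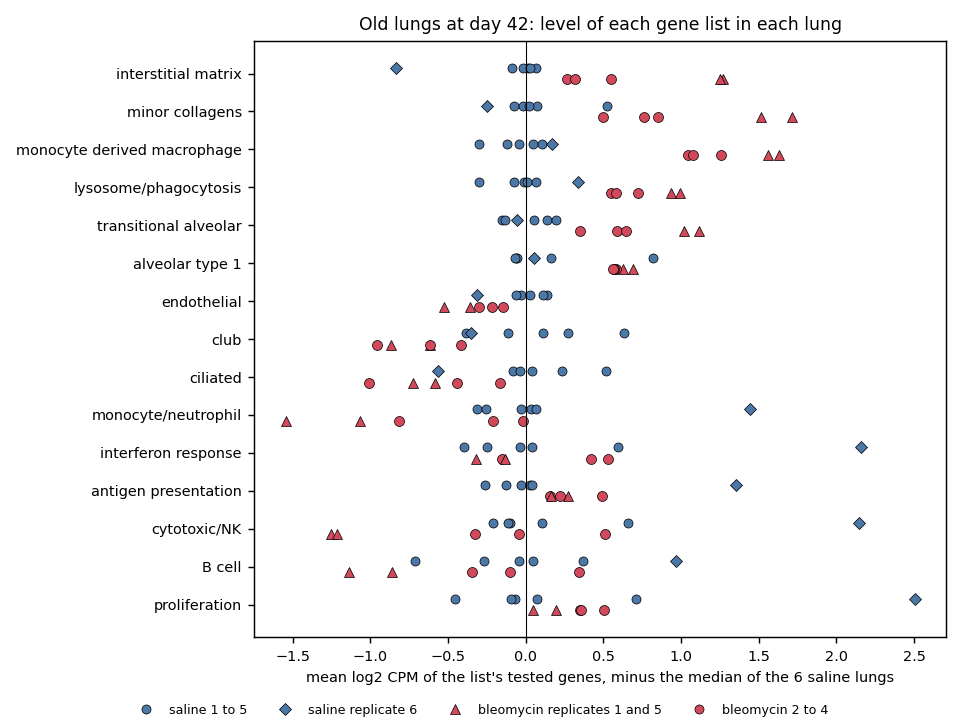
Mean log2 CPM of 15 gene lists in each lung, relative to the median of the 6 saline lungs; the diamond is saline replicate 6 and triangles are bleomycin replicates 1 and 5. Macrophage and lysosome levels separate the groups in every lung, and the diamond is far to the right for the immune and cell cycle lists and far to the left for interstitial matrix.

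The bleomycin effect was then compared with that of young lungs at the same day, in which age and dose differ together. In young lungs 1401 genes (7.62%) were called. A direct test of the difference called 6 genes (0.0326%), and none of the matrix, macrophage or epithelial genes described above was among them. Col1a1 was at 0.13 ± 0.30 in young and 1.11 ± 0.29 in old lungs, a difference of 0.98 ± 0.42 with an adjusted p of 0.5. For Spp1 the difference was 0.80 ± 0.48 and for Mmp12 −0.94 ± 0.65, neither called. Of the 25 matrix genes 2 rose in young lungs, with a median difference of 0.55 that holds saline replicate 6. The homeobox gene Meox2 rose in old lungs (0.35 ± 0.11) and fell in young lungs (−0.57 ± 0.11), a difference of 0.92 ± 0.16 (adjusted p = 0.000662). Its old values were 29.6, 27.8, 26.4, 27.5 and 25.8 CPM in the bleomycin lungs against 11.9 to 27.8 (median 21.98) CPM in the saline lungs, and without saline replicate 6 the rise in old lungs was 0.22 and not called. Slc27a6, a fatty acid transporter, rose without overlap in old lungs (1.15 ± 0.18) and was at 0.00 ± 0.18 in young lungs. The others were Rap2a (0.46 ± 0.092), Steap3 (0.57 ± 0.12), Ighg3 (−6.55 ± 1.43) and D430019H16Rik (0.65). Without saline replicate 6 the difference test called 1 gene.

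All difference tests share the old day 42 lungs and are not independent. Against the neighbouring days the count of called genes lay between those of day 35, with 5443 genes called (29.6%), and day 56, with 2543 (13.8%). The difference between days 42 and 35 was called for 0 genes (0%) by edgeR and 22 by DESeq2, and 2351 had an unadjusted p under 0.05. Tnc was at 3.66 ± 0.43, 2.70 ± 0.41 and 1.98 ± 0.32 at days 35, 42 and 56, Grem1 at 5.96 ± 0.69, 4.08 ± 0.66 and 2.35 ± 0.53, and Timp1 at 3.19 ± 0.43, 1.93 ± 0.41 and 1.29 ± 0.34. Gpnmb was at 3.32 ± 0.30, 2.80 ± 0.29 and 1.999 ± 0.23. Each estimate was lower at the later day, but no step between neighbouring days was called for any of these 4 genes. The list medians at these days also went down for interstitial matrix (1.17, 0.81 and 0.48) and monocyte-derived macrophages (1.76, 1.12 and 0.86). They were highest at day 42 for basement membrane (0.32, 0.56 and 0.15) and type 1 cells (−0.004, 0.52 and 0.005). In these 4 lists 0 genes were called for either step. From day 42 to 56 the difference was called for 19 genes (0.103%), among them Ifi27l2a (1.79 ± 0.37), Ido1 (2.60 ± 0.55), Irgm1 (1.16 ± 0.25) and Olfr56 (1.86 ± 0.40), whose effect was higher at day 56, and the kinase Src (−0.37 ± 0.087), whose effect was lower. Without saline replicate 6 of day 42 none of the 19 was called, and 1093 genes had an unadjusted p under 0.05.

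**Figure D5:**
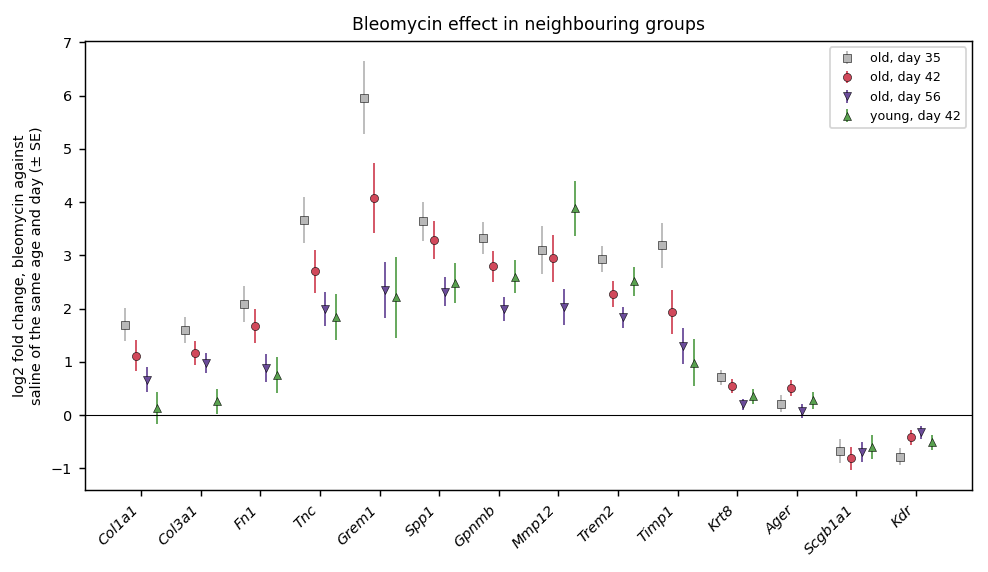
Log2 fold change of bleomycin over matched saline lungs (± standard error) for 14 genes in old lungs at days 35, 42 and 56 and in young lungs at day 42. For the matrix and macrophage genes shown, estimates in old lungs at day 42 lie between those of days 35 and 56, and Col1a1 and Col3a1 in young lungs are at 0.13 and 0.26.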

How the data were processed

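RNA from lung tissue had been made into libraries with an mRNA kit (per the labels' protocols), and the authors deposited whole-number read counts per Ensembl gene for 137 libraries. Per the submitters' processing notes the tools were bcl2fastq 2.20.0.422, STAR 2.5.2 or 2.5.2b, featureCounts 1.5.1, RSEM 1.3.0 and FastQC 0.11.5, with GRCm38, hg38 and GRCh38 named as builds without roles; strand setting and annotation are not given in the sources used here. Symbols and GRCm38 positions came from GENCODE M21 (48348 of 48794 genes named). Groups came from the labels.

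Genes passing edgeR 4.0.16 filterByExpr (minimum count 10, minimum total 15) were scaled by TMM and fitted with glmQLFit (robust) on all 137 libraries in 26 groups, which share 1 estimate of the spread with 111 residual degrees of freedom. P-values were adjusted by Benjamini-Hochberg over 18396 genes and called under 0.05. Standard errors were derived from the F statistic and the estimate. Like the p-values, they do not measure the spread of the compared groups alone. CPM uses TMM sizes, and scores are means of log2 CPM (prior count 2). The fit was tested on simulated data. Depth is given with the results, and counting error is small except for genes near 1 CPM.

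The 58 gene lists, the panel of 28 genes and the groups were chosen with earlier results of these data known. Named genes are that panel, the 12 largest rises and 10 largest falls without overlap and with the same call without saline replicate 6 (average log2 CPM above 1, no predicted genes or receptor segments), the 3 called members with the smallest p of each list (2 where none is called), and the 4 leading genes in each direction of the difference tests. List members named beyond these were chosen after their values were seen. Alternatives were RLE scaling, no filter, DESeq2 1.42.0, the compared groups alone, each lung left out, other control groups and a 2-fold minimum; the groups alone without saline replicate 6 were added after seeing the data. Promoter windows came from RefSeq (GRCm38.p6). R 4.3.3 was used.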

Additional observations from a re-analysis of the deposited data

Results flagged for a closer look

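In each group of 5 or 6 lungs of day 42 the highest or lowest lung was set against Dixon's 95% limit for list scores and 45 single genes, where chance flags about 1 in 20 groups. This marked 12 list scores and 10 genes. Saline replicate 6 was the lowest saline lung for interstitial matrix (6.20, others 6.94 to 7.10), collagen processing (5.48, others 5.72 to 5.86), BMP and WNT antagonists (2.41, others 2.85 to 2.97), pericyte (4.87, others 5.65 to 5.86) and aerocyte genes (6.40, others 6.93 to 7.15). It was the highest for monocyte and neutrophil (7.63, others 5.87 to 6.25), antigen presentation (9.56, others 7.95 to 8.25), cytotoxic (4.24, others 1.88 to 2.75) and glycolysis genes (6.23, others 5.84 to 5.92). As log2 CPM it was lowest for Col1a1 (7.50), Col3a1 (7.63), Jchain (4.27), Kdr (8.16), Col24a1 (−3.40), Cemip (−1.49) and Hes2 (1.34), and highest for Cdkn2a (2.79, others 0.0162 to 0.584).

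Other single lungs also stood apart. Saline replicate 5 was high for alveolar type 1 genes (9.28, others 8.40 to 8.63). Saline replicate 3 was low for Spp1 (6.30, others 7.36 to 7.56) and saline replicate 1 high for Megf11 (0.21, others −2.03 to −1.21). Bleomycin replicate 3 was high for mesothelial genes (5.65, others 4.65 to 4.94) and bleomycin replicate 1 for skeletal muscle genes (0.917, others −1.70 to −1.01).

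Effects that differed between groups by a direct test were, for old minus young at day 42, Meox2 (0.92), Rap2a (0.465), Steap3 (0.572), Slc27a6 (1.15) and Ighg3 (−6.55), and, for day 56 minus day 42 in old lungs, Ifi27l2a (1.79), Ido1 (2.60), Olfr56 (1.86), Irgm1 (1.16) and Src (−0.368).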

How the results depend on the processing

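No paired analysis was possible because bleomycin and saline lungs have no replicate number in common in their labels. The count of 3610 genes was 1178 with the compared groups alone (1147 of them called in the same direction by both fits). It was 2909 with the groups alone without saline replicate 6. It was 5926 with the mean of 6 old saline groups as control, 748 with a 2-fold minimum, and 2129 to 3795 when each lung was left out. The age difference was called for 6 genes, 2 with RLE scaling, 1 without the count filter, 26 by DESeq2, 0 with the groups alone (1091 at an unadjusted p under 0.05), and 1 to 45 with a lung left out. The difference between days 42 and 35 was called for 0 genes, 22 by DESeq2, and 0 to 343 with a lung left out. The difference between days 56 and 42 was called for 19 genes, 41 by DESeq2, 0 without the filter (2138 at an unadjusted p under 0.05) or with the groups alone (1366 likewise), and 0 to 193 with a lung left out. Each test of a difference thus moved by more than 1.5 times with single lungs, and the causes were not tested.

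Of 189 named genes 172 were called, and 94 of these kept direction and call under every alternative run. With the groups alone 72 lost their call. With saline replicate 6 left out of that fit as well 40 did, beside 6 that changed sign. Signs changed in 12. Against untreated lungs Plac8 was at 0.31, Mmp8 0.37, Psmb9 0.22, Ido1 0.17, Olfr56 0.28, Gbp2 0.41, Zbp1 0.70, Tap1 0.40, Irgm1 0.35 and Ighg3 1.93. In the groups alone without saline replicate 6 the values were 0.1104 for Gbp2, 0.0639 for Zbp1, 0.00932 for Tap1, 0.132 for Kif11, 1.20 for Ighg3 and 0.0168 for Irgm1. When each lung was left out in turn the estimates ran from −1.44 to 0.114 for Gbp2, −1.48 to 0.0676 for Zbp1, −0.802 to 0.0133 for Tap1, −1.33 to 0.136 for Kif11, −2.93 to 1.21 for Ighg3, −0.922 to 0.0206 for Irgm1 and −0.761 to 3.24 for Acta1, positive only without saline replicate 6 for the first 6 and negative only without bleomycin replicate 1 for Acta1. Against the mean of all old saline groups Zbp1 was at 0.0893, Kif11 0.182 and Ighg3 0.528.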
